A study of Mus musculus with 6 samples.

Results

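*Lyz1*, *Mptx1*, *Mptx2*, *Ang4*, *Itln1* and *Pla2g2a* encode secreted antimicrobial and microbe-binding proteins other than the defensins, and are grouped here as Paneth cell genes by name, although *Mptx1* was found in goblet-like cells. These 6 genes were chosen by name and not by a measured value, but with earlier results of these data known. Of them, 5 were analysed, out of 32285 genes in the deposited matrices. *Pla2g2a* was not analysed here. The measurements were unique molecular identifier (UMI) counts, which count captured RNA molecules once each, in single cells of the jejunal epithelium. The 6 libraries came from 3 groups of male C57BL/6J mice, each with 1 library labelled crypts and 1 labelled villi. LFD sham mice ate a low-fat diet and had sham surgery, HFD sham mice ate a high-fat diet and had sham surgery, and HFD VSG mice ate the high-fat diet and had vertical sleeve gastrectomy (VSG), which removes most of the stomach. All mice were about 30 weeks old, had 16 weeks of diet before surgery and were sampled 5 weeks after it, following an overnight fast. Each library was a pool, of 3 LFD sham, 3 HFD sham or 2 HFD VSG mice, and each group had 1 library per fraction. The crypts and villi of a group were separated from the jejunum of the same mice, so the fractions are not separate animals. No difference between libraries could therefore be set against the spread between mice or between preparations, and no test was made. The intervals given are 95% limits for counting error only, exact Poisson for levels, exact binomial for shares and exact conditional binomial for ratios.

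Paneth cells sit at the base of the small intestinal crypts, next to the stem cells, and release dense granules of antimicrobial proteins into the crypt lumen. Alpha-defensins make up most of that cargo, and lysozyme, lectins, pentraxins, ribonucleases and a secreted phospholipase make up the rest. *Lyz1* encodes the Paneth cell lysozyme, which cleaves the peptidoglycan of bacterial walls. *Itln1* encodes intelectin, a lectin that binds microbial sugars, and *Ang4* encodes an angiogenin, a ribonuclease with bactericidal activity. *Mptx1* and *Mptx2* encode mucosal pentraxins, of the family of C-reactive protein and serum amyloid P. *Pla2g2a* encodes a secreted phospholipase A2 that carries a natural frameshift in C57BL/6 mice, and GENCODE vM21 lists it as a polymorphic pseudogene at chr4:138831857-138835186 on the plus strand.

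On GRCm38, *Lyz1* (ENSMUSG00000069515) lay at chr10:117287797-117292868 and *Ang4* (ENSMUSG00000060615) at chr14:51763878-51773590, both on the minus strand. The other 3 genes lay on chromosome 1. *Itln1* (ENSMUSG00000038209) was at chr1:171518122-171535294 and *Mptx2* (ENSMUSG00000079180) at chr1:173274382-173277777, both on the minus strand, while *Mptx1* (ENSMUSG00000026531) was at chr1:174330518-174332873 on the plus strand. The pentraxin genes were 1052740 bases apart.

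The upstream sequences of the pentraxin pair are shown because their transcripts were found in different cell classes. Both come from RefSeq for GRCm38.p6, whose promoter table held 5 of the 6 genes, and both run 5′ to 3′ on the gene's own strand up to the base before the gene. The *Mptx1* sequence spans 250 bases (chr1:174330268-174330517, plus strand) and the *Mptx2* sequence 229 bases (chr1:173277778-173278006, minus strand). Capitals mark the 2 longest runs of bases that both share.
*Mptx1*: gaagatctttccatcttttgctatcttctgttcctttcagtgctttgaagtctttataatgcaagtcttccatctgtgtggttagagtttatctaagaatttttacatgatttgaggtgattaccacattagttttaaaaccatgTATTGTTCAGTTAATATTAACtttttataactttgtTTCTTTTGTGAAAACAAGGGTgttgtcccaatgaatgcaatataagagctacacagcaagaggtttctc
*Mptx2*: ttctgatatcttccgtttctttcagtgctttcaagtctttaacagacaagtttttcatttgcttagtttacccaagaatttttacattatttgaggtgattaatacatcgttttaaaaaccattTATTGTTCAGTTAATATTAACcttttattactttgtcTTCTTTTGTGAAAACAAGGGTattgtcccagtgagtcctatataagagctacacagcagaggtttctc

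Both shared runs held 21 bases. One began 105 bases upstream of either gene, and the other 69 bases upstream of *Mptx1* and 68 bases upstream of *Mptx2*. The printed sequences were identical in 80.2% of their aligned positions. Over equal windows of 250 bases the pentraxin pair was 74.3% identical, and the other 9 pairs among the 5 genes were 46.2% to 51.7% identical. Of 3 motifs searched on both strands, TATAAG was present 29 bases upstream of *Mptx1* and 28 bases upstream of *Mptx2*, and it occurred in 6.65% of 32851 RefSeq promoters. TATAAA, present in 12.4% of promoters, matched at 2 places upstream of *Mptx1*, both on the strand opposite to the printed one. It matched at none in the shorter window of 229 bases upstream of *Mptx2*. CTTTGA, present in 13.8% of promoters, matched once upstream of *Mptx1* and not upstream of *Mptx2*. None of the 3 motifs matched upstream of *Lyz1*, *Ang4* or *Itln1* in these windows.

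The called barcodes of a library held 60522766 to 155522445 UMIs, and 2832 to 4639 cells per library passed the filters. Libraries shared 17 to 43 barcodes pairwise, 0.219% to 0.450% of the smaller library. The villus-labelled libraries held more crypt cell types than the crypt-labelled ones, with 211, 94 and 388 stem-like cells against 39, 47 and 126 (LFD sham, HFD sham and HFD VSG), so the fractions are given by their labels only. Paneth-like cells were 1 cluster of 604 cells, named from 11 of 11 detected Paneth markers, with the 5 genes kept out of both the clustering and the markers. They numbered 67, 26 and 38 in the LFD sham, HFD sham and HFD VSG crypts and 170, 212 and 91 in the villi, and their median depth ranged from 3048 to 46958 UMIs. The alpha-defensins held 55.1% to 62.9% of their summed UMIs. One library stood apart in how many of its cells were rich in them. Of the 91 Paneth-like cells of the HFD VSG villi, 43 had at least 10% alpha-defensin UMIs, against 154 of 170 in the LFD sham villi and 181 of 212 in the HFD sham villi. The other 48 cells of that library had a median of 1735 UMIs and held UMIs of 12 of 12 immune markers, which were 0.365% of their UMIs, against 3.09% in its immune-like cells. Their levels were close to those of the immune-like cells, with *Lyz1* at 308 against 263 CPM and *Mptx2* at 22.8 against 20.1 CPM. In the LFD sham villi the 16 cells under 10% held UMIs of 11 of 12 immune markers (0.290%), and in the other 4 libraries the 1 to 31 such cells held none. The immune-like cells of the HFD sham villi held only 0.039% immune-marker UMIs, against 2.46% in those of the LFD sham villi. The absence in the 31 cells of the HFD sham villi therefore tells little about what they are. At a clustering resolution of 0.8, 386 of the cells stayed in a Paneth-like cluster, while another cluster of 217 shallow cells, in which 11 of 11 Paneth markers also counted, was led by *Samd5*, *Gzmb* and *Ptprc* and left unnamed. Of those 217 cells, 6, 5 and 9 were from the LFD sham, HFD sham and HFD VSG crypts and 46, 96 and 55 from the villi. Some cells with at least 10% alpha-defensin UMIs also left the Paneth-like cluster, most of all in the HFD sham villi. There 116 of 181 stayed, against 123 of 154 in the LFD sham villi and 36 of 43 in the HFD VSG villi. Levels and ratios of the 4 genes in Paneth-like cells of the HFD VSG villi are therefore also given for the cells with at least 10% alpha-defensin UMIs. In the LFD sham crypts 65 of 67 cells passed that minimum, but at a median of 3048 UMIs and with alpha-defensins at 26.1% of the median cell's UMIs, the lowest share of the crypt libraries.

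*Lyz1*, *Itln1*, *Ang4* and *Mptx2* were transcripts of Paneth-like cells, and *Mptx1* was a transcript of goblet-like cells. Levels are UMIs of a gene per 1000000 UMIs of the class (CPM). Because 1 tag was counted per molecule at the 3′ end, whatever the transcript's length, levels of different genes are set side by side as tags. Paneth-like cells were 0.819% to 5.95% of the cells of a library and held 89.4% to 95.2% of its *Lyz1* UMIs. They held 86.0% to 93.9% of the *Itln1* UMIs, 83.8% to 95.1% of the *Ang4* UMIs and 82.6% to 96.4% of the *Mptx2* UMIs. They held at most 2.91% of the *Mptx1* UMIs, 66.7% to 95.5% of which were in goblet-like cells.

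**Figure D1:**
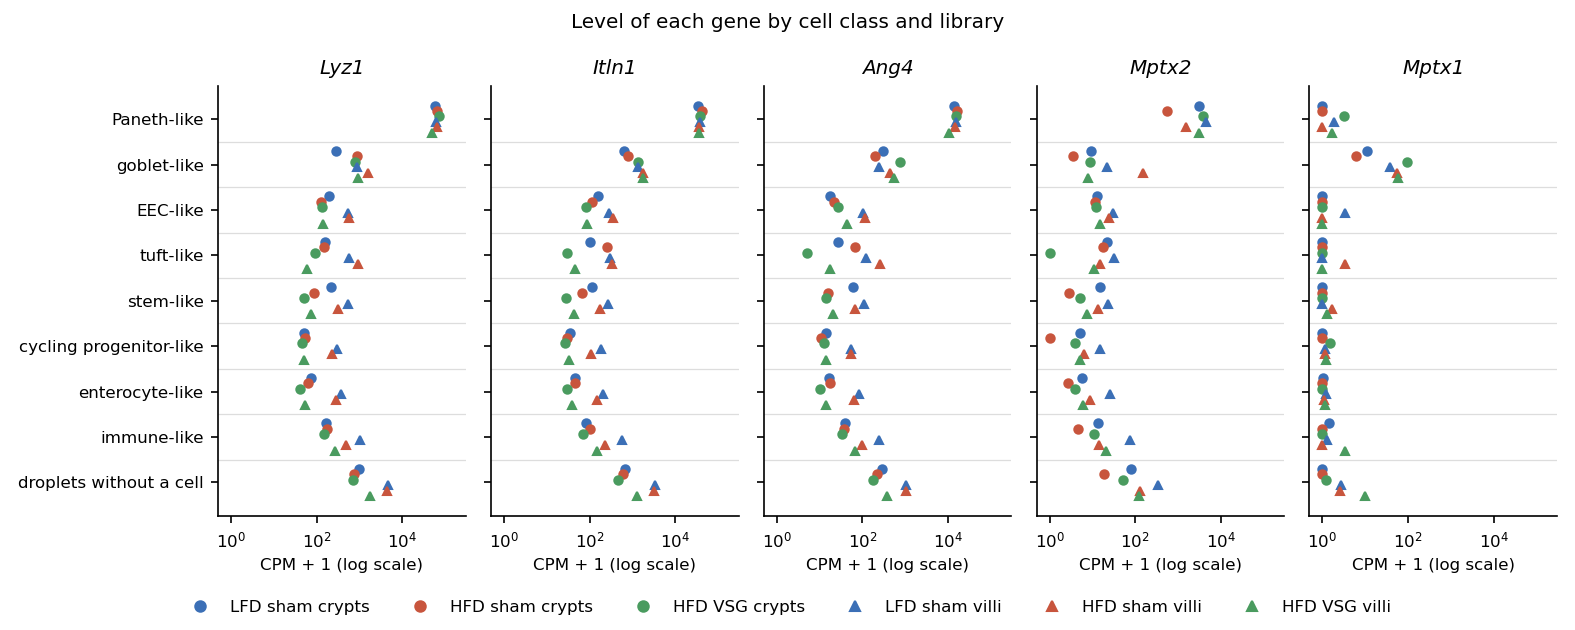
Level of *Lyz1*, *Itln1*, *Ang4*, *Mptx2* and *Mptx1* (CPM + 1, log axis) in each cell class and in droplets without a cell. Circles are crypt-labelled and triangles villus-labelled libraries, in blue for LFD sham, red for HFD sham and green for HFD VSG. The first 4 genes were highest in Paneth-like cells in all 6 libraries, and *Mptx1* was highest in goblet-like cells in all 6. In the HFD sham crypts the place of *Mptx1* rests on 4 UMIs in 3 goblet-like cells, too few to rank the classes.

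Among the 5 genes, *Lyz1* had the highest level in Paneth-like cells of every library. It was 56221 CPM [55784 to 56661] in the LFD sham crypts, 65056 [64395 to 65722] in the HFD sham crypts and 71648 [71193 to 72105] in the HFD VSG crypts. In the villi *Lyz1* was 59260.2 CPM [59079 to 59442], 65198 [64911 to 65486] and 49668 [49416 to 49921] in the same order of groups. The HFD VSG libraries were at both ends, highest in the crypts and lowest in the villi, and the HFD VSG villi were at 54409.7 CPM in the cells with at least 10% alpha-defensin UMIs. These sums weigh deep cells most. At equal weight per cell, as the level expected over draws of 1500 UMIs from each, *Lyz1* was at 33525, 60382 and 57770.0 CPM in the crypts. Over all Paneth-like cells HFD sham and no longer HFD VSG was then the highest of the crypts, with LFD sham lowest in both. Among cells with at least 10% alpha-defensin UMIs, *Lyz1* was at 34483, 61644 and 66421 CPM at equal weight, with HFD VSG again the highest.

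*Itln1* was second in level. It was 33104 CPM [32769 to 33442], 42197 [41665 to 42734] and 38355 [38022 to 38690] in the LFD sham, HFD sham and HFD VSG crypts. In the villi *Itln1* was 38719.9, 36126 and 36299.7 CPM in the same order. The HFD sham library was the highest of the crypts and the lowest of the villi. In the cells with at least 10% alpha-defensin UMIs *Itln1* was 38928, 36855 and 39772 CPM in the villi, with HFD VSG the highest.

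*Ang4* was next, at 13514 CPM [13300 to 13730], 16577 [16244 to 16915] and 15296 [15086 to 15508] in the LFD sham, HFD sham and HFD VSG crypts. In the villi *Ang4* was 14985 CPM [14894 to 15077], 14260.0 [14126 to 14395] and 10347 [10232 to 10463]. The HFD VSG villi gave the lowest of the 6 values, also in the cells with at least 10% alpha-defensin UMIs (11332 CPM).

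*Mptx2* was lower than these 3 genes in every library, and its order of groups was not theirs. It was 3085 CPM [2983 to 3189] in the LFD sham crypts, 562 [502 to 627] in the HFD sham crypts and 3857 [3752 to 3965] in the HFD VSG crypts. In the villi *Mptx2* was 4441 CPM [4392 to 4491], 1510.0 [1467 to 1554] and 3156 [3093 to 3221]. Both HFD sham libraries were below the other 4, whose values overlapped between the LFD sham and HFD VSG groups.

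*Mptx1* was close to absent from Paneth-like cells, with 0, 0 and 3 UMIs in the crypts and 6, 0 and 2 in the villi, among 569231 to 6926458 UMIs of the class. No ratio between groups is given for these counts.

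Outside Paneth-like and goblet-like cells the first 4 genes were found at low levels in every class. In enterocyte-like and immune-like cells *Lyz1* ranged from 39.0 to 1042 CPM, *Itln1* from 29.3 to 578, *Ang4* from 9.21 to 242 and *Mptx2* from 1.70 to 72.7. Droplets with fewer than 100 UMIs, which hold free RNA and no cell, had *Lyz1* at 681 to 4610 CPM and *Mptx2* at 18.0 to 335 CPM. The droplets of the villus-labelled libraries held more *Lyz1* (4610, 4456 and 1766 CPM) than those of the crypt-labelled ones (974, 753 and 681 CPM).

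The comparison of HFD sham with LFD sham asks about the diet, and here *Mptx2* differed from the other genes. *Mptx2* was lower in HFD sham Paneth-like cells by a log2 ratio of -2.46 [-2.63 to -2.29] in the crypts and -1.56 [-1.60 to -1.51] in the villi. *Lyz1* was 0.21 [0.19 to 0.23] and 0.14 [0.13 to 0.15] higher on the log2 scale. In the villi the sign of *Lyz1* held in 10 of 13 alternative ways of processing, with values down to -0.15. *Ang4* had log2 ratios of 0.29 [0.26 to 0.33] in the crypts and -0.07 [-0.09 to -0.06] in the villi, and *Itln1* 0.35 [0.33 to 0.37] and -0.10 [-0.11 to -0.09]. Only *Mptx2* of the 4 measured genes lay beyond 0.5, a size set for description, in either fraction. When cells were thinned to equal depth, *Lyz1*, *Ang4* and *Itln1* of the crypts also passed it, upwards, at 0.88, 0.68 and 0.86. Of all 752 genes that averaged 50 UMIs or more over the crypt libraries, 12.2% were lower by more than 0.5 and 13.0% higher, and of 3486 such genes in the villi 7.75% were lower and 24.6% higher. The median log2 ratio was 0.25 over the 4 genes and -0.01 over all genes in the crypts, and -0.09 and 0.21 in the villi.

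The comparison of HFD VSG with HFD sham asks about the surgery on the same diet, and shares the HFD sham libraries with the comparison above. *Mptx2* was higher in the HFD VSG libraries by a log2 ratio of 2.78 [2.62 to 2.95] in the crypts and 1.06 [1.01 to 1.11] in the villi. *Lyz1* had log2 ratios of 0.14 [0.12 to 0.16] and -0.39 [-0.40 to -0.38], with opposite signs in the fractions. In the crypts the sign of *Lyz1*, *Ang4* and *Itln1* held in 11 of 13 alternatives each, with ranges of -0.12 to 0.59, -0.33 to 0.34 and -0.35 to 0.31. *Ang4* was lower in both, at -0.12 [-0.15 to -0.08] and -0.46 [-0.48 to -0.44]. *Itln1* was at -0.14 [-0.16 to -0.12] and 0.01 [-0.00 to 0.02], the second of which includes 0. In the cells with at least 10% alpha-defensin UMIs the villus ratios were 1.17 for *Mptx2*, -0.29 for *Lyz1*, -0.36 for *Ang4* and 0.11 for *Itln1*. Again *Mptx2* was the only 1 of the 4 beyond 0.5, in a direction taken by 2.93% of all genes in the crypts and 16.9% in the villi, with 33.6% and 35.5% of all genes in the other direction. The median log2 ratio was 0.01 over the 4 genes and -0.27 over all genes in the crypts, and -0.19 and -0.24 in the villi.

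The comparison of HFD VSG with LFD sham gave small ratios, above 0 in the crypts and below 0 in the villi over all Paneth-like cells. *Mptx2* was at 0.32 [0.26 to 0.38] on the log2 scale in the crypts and -0.49 [-0.53 to -0.46] in the villi. *Lyz1* was at 0.35 and -0.25, *Ang4* at 0.18 and -0.53, and *Itln1* at 0.21 and -0.09. In the crypts none of the 4 genes lay beyond 0.5, against 31.0% of all genes lower and 3.59% higher. In the villi *Ang4* was the only one, against 15.3% of all genes lower and 14.4% higher, and in the cells with at least 10% alpha-defensin UMIs its ratio was -0.41. In the same cells of the villi *Lyz1* was at -0.13, *Mptx2* at -0.37 and *Itln1* at 0.03, the last with its sign turned. These counts depended on the processing. With the genes of the Paneth lists left out of the totals, all 4 genes lay above 0.5 in the crypts, at 0.60 to 0.77. In cells thinned to equal depth all 4 lay below -0.5 in the villi, at -1.23 to -0.70, and *Mptx2* was at -0.42 in the crypts. Thinning weighs cells equally, and 48 of the HFD VSG villus cells before thinning had few defensins. In villus cells with at least 10% alpha-defensin UMIs, levels expected at equal depth were 57813 (LFD sham) and 49449 CPM (HFD VSG) for *Lyz1*. In the same order they were 4237 and 3631 for *Mptx2*, 13281 and 9234 for *Ang4*, and 36872 and 37943 for *Itln1*.

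**Figure D2:**
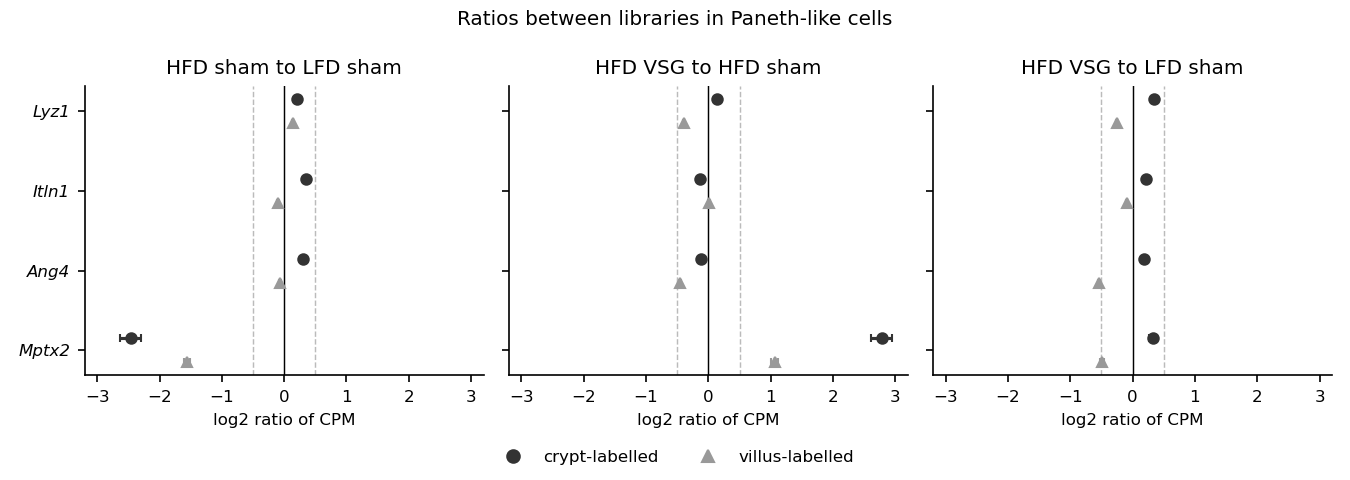
Log2 ratio of CPM in Paneth-like cells for *Lyz1*, *Itln1*, *Ang4* and *Mptx2*, in 1 panel per comparison. Circles are crypt-labelled and triangles villus-labelled libraries, bars are 95% counting intervals and dashed lines mark 0.5 in each direction. *Mptx2* lies far from the other 3 genes in the comparisons that include HFD sham, at -2.46 and -1.56 against LFD sham and at 2.78 and 1.06 for HFD VSG against HFD sham.

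*Mptx2* was also lower in HFD sham than in LFD sham and HFD VSG without the cells of few defensins, without the highest cell and at equal depth. In the cells with at least 10% alpha-defensin UMIs, *Mptx2* was 3112, 564 and 3897 CPM in the crypts and 4469, 1539 and 3457 in the villi. The cell with most *Mptx2* UMIs held 6.88% to 26.9% of the class's sum, and without it the levels were 2374, 469 and 3283 CPM in the crypts and 4173, 1369.6 and 2652 CPM in the villi. At a clustering resolution of 0.8 the ratio of HFD sham to LFD sham was -2.43 in the crypts and -1.52 in the villi, and that of HFD VSG to HFD sham 2.80 and 1.15. Cells were then thinned to 1500 UMIs each, leaving out 1 shallower cell of the HFD sham villi and 12 of the HFD VSG villi. In 1 random draw the ratio of HFD sham to LFD sham was -2.59 in the crypts and that of HFD VSG to HFD sham 2.17. In the thinned villi the ratio of HFD VSG to HFD sham was 0.61 for *Mptx2*, while *Lyz1* was at -0.94, *Ang4* at -1.08 and *Itln1* at -0.60. Thinning gives each cell left the same weight, and 48 of the 91 HFD VSG villus cells before thinning had few defensins.

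At equal depth a smaller share of HFD sham than of LFD sham Paneth-like cells held an *Mptx2* transcript. The share expected over all draws of 1500 UMIs per cell was 78.1%, 44.1% and 63.9% in the LFD sham, HFD sham and HFD VSG crypts and 75.6%, 45.4% and 40.6% in the villi. In 1 random draw, 74.6% [62.5% to 84.5%] of 67 cells had an *Mptx2* UMI in the LFD sham crypts, 30.8% [14.3% to 51.8%] of 26 in the HFD sham crypts and 65.8% [48.6% to 80.4%] of 38 in the HFD VSG crypts. In the villi the draw gave 77.1% [70.0% to 83.1%] of 170, 40.3% [33.6% to 47.2%] of 211 and 40.5% [29.6% to 52.1%] of 79 cells. The draw was low for the HFD sham crypts, where 44.1% was expected.

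Among cells with at least 10% alpha-defensin UMIs, a choice added after seeing the data, the expected *Mptx2* share was 80.2%, 44.2% and 73.6% in the crypts and 79.8%, 47.7% and 70.8% in the villi, so that in these cells, unlike in all Paneth-like cells, the HFD VSG villi were above the HFD sham villi. One random draw of these cells gave 47.5% [40.1% to 55.1%] of 181 in the HFD sham villi and 62.8% [46.7% to 77.0%] of 43 in the HFD VSG villi, and those intervals overlap. Thinned enterocyte-like cells, which should lack the transcript, had *Mptx2* shares of 0.640% to 4.95%, and thinned immune-like cells 1.80% to 12.4%.

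Before thinning, 91.0%, 73.1% and 76.3% of Paneth-like cells had an *Mptx2* UMI in the crypts, at median depths of 3048, 14124 and 36148 UMIs. In the villi 92.9%, 67.0% and 49.5% had one, at median depths of 46958, 6020 and 5228 UMIs. Enterocyte-like cells had shares of 2.10% to 23.8% at median depths of 9365 to 34642 UMIs, and immune-like cells 2.39% to 25.8% at 3183 to 8432 UMIs. The lysozyme gene *Lyz1* was found in 97.4% to 100% of Paneth-like cells in 5 libraries and in 81.3% in the HFD VSG villi, and in 47.2% to 96.7% of enterocyte-like cells, so a single UMI of *Lyz1* did not separate the classes.

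Within a library the genes spread differently over Paneth-like cells. Among cells with at least 10% alpha-defensin UMIs, the median cell had *Mptx2* at 3401, 252 and 2059 CPM in the LFD sham, HFD sham and HFD VSG crypts and at 2255, 377 and 1252 CPM in the villi. The middle range of cells (first to last quartile) ran from 508 to 5745 CPM in the LFD sham crypts and from 0 to 1533 CPM in the HFD sham crypts. Cells without an *Mptx2* UMI numbered 5 of 65, 7 of 25 and 4 of 33 in the crypts, and 4 of 154, 51 of 181 and 4 of 43 in the villi. The highest single cells reached 16599, 2908 and 14756 CPM in the crypts and 36326, 39082 and 34417 CPM in the villi, so the highest cell of the HFD sham villi was as high as those of the other villi. The last quartile of these cells began at 1425 CPM in the HFD sham villi, against 4959 and 4387 CPM in the LFD sham and HFD VSG villi.

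The median cell had *Lyz1* at 27155, 55547 and 63364 CPM in the crypts and at 59959, 54986 and 49957 CPM in the villi, by the same count of cells. Over all Paneth-like cells of the HFD VSG villi the *Lyz1* median was 2730 CPM, against 49957 CPM in those with at least 10% alpha-defensin UMIs. Across cells of a library *Ang4* and *Itln1* went together, with Spearman correlations of 0.38 to 0.75, and so did *Lyz1* and *Ang4*, with 0.37 to 0.70. *Lyz1* and *Itln1* did so less evenly, at 0.84, 0.73 and -0.11 in the LFD sham, HFD sham and HFD VSG crypts and at 0.33, 0.45 and 0.15 in the villi. *Mptx2* and *Lyz1* had correlations of 0.16, 0.55 and 0.12 in the crypts and 0.29, 0.05 and -0.01 in the villi, over 25 to 181 cells of 1 library each. Depth differed between the cells and went with the levels, in the LFD sham crypts with Spearman correlations of 0.69 for *Lyz1*, 0.62 for *Ang4*, 0.76 for *Itln1* and 0.01 for *Mptx2*, and its part in the correlations between genes was not tested. The value of 0.55 came from the 25 cells of the HFD sham crypts.

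**Figure D3:**
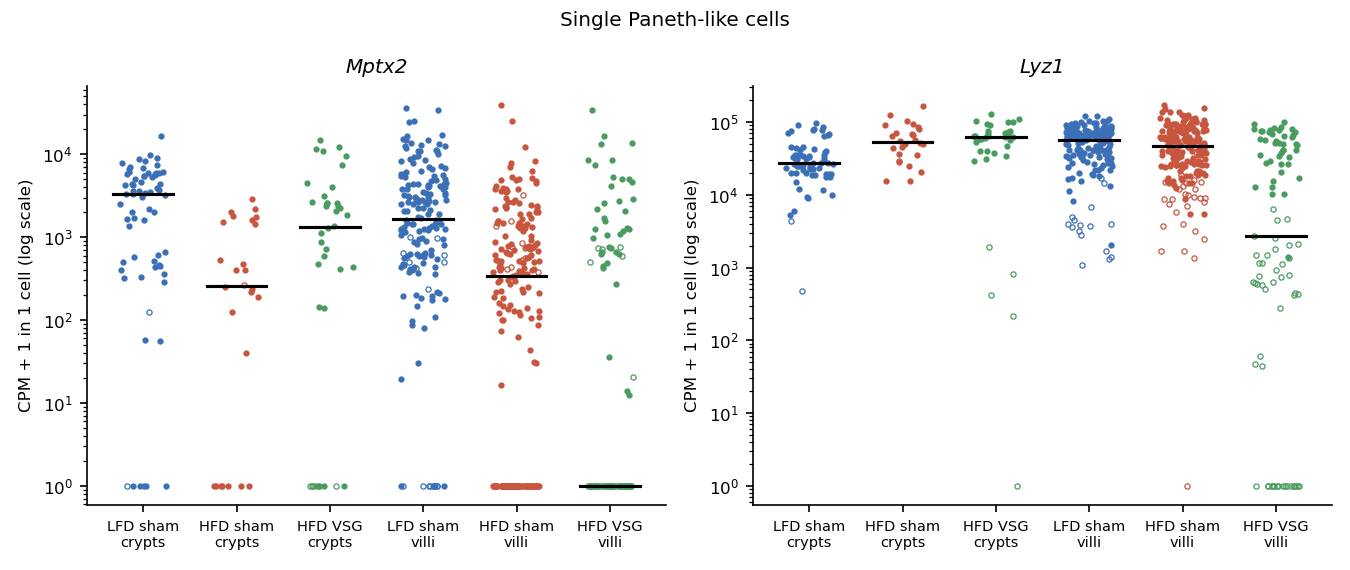
Level of *Mptx2* and *Lyz1* (CPM + 1, log axis) in each Paneth-like cell, by library. Filled points are cells with at least 10% alpha-defensin UMIs, open points the others, and bars the median of all cells. For *Mptx2* the HFD sham medians are 259 and 341 CPM, below the LFD sham medians of 3339 and 1658 CPM, and the HFD VSG villi hold many open points and a median of 0.

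The free RNA of each library carried the same order of *Mptx2* against *Lyz1*. Free RNA comes from broken cells of the suspension and reaches all droplets. The study states its highest free-RNA contamination for the HFD sham crypts and the HFD sham villi. Estimated here from immune-like cells, the fraction of free RNA was 0.26, 0.27 and 0.29 in the LFD sham, HFD sham and HFD VSG crypts. It was 0.22, 0.14 and 0.091 in the villi, where the HFD sham value rested on 5 cells. The study's fractions, made with another method, were far lower for the LFD sham and HFD VSG libraries and near these for HFD sham. The cells used here came from a shallow cluster, of median depth 0.289 relative to the median of the library. These fractions need not hold for deeper classes. In Paneth-like cells *Mptx2* UMIs were 5.49% [5.30% to 5.68%] of *Lyz1* UMIs in the LFD sham crypts, 0.864% [0.772% to 0.965%] in the HFD sham crypts and 5.38% [5.23% to 5.54%] in the HFD VSG crypts. In the villi they were 7.49% [7.41% to 7.58%], 2.32% [2.25% to 2.38%] and 6.35% [6.22% to 6.49%].

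In droplets without a cell the *Mptx2* share of *Lyz1* was 8.02% [6.77% to 9.44%], 2.39% [1.64% to 3.37%] and 7.41% [6.46% to 8.47%] in the crypts. It was 7.26% [6.67% to 7.89%], 2.83% [2.48% to 3.22%] and 6.96% [6.38% to 7.58%] in the villi. The HFD sham libraries were again the lowest of each fraction, by intervals that did not overlap those of the other groups. Droplets and cells of a library come from the same suspension, so this is not a separate measurement of the mice. In enterocyte-like cells the shares were 6.87%, 2.78% and 7.69% in the crypts and 6.58%, 2.81% and 9.34% in the villi. The last, with limits of 7.68% to 11.3%, lay above the droplets of its library, and the intervals of the other 5 overlapped those of their droplets. Droplets of the 3 crypt-labelled libraries and of the HFD sham villi gave a ratio above that of their Paneth-like cells, with no overlap of the intervals, and the intervals overlapped in the other 2 libraries.

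*Ang4* and *Itln1* showed no such order. *Ang4* UMIs were 20.8% to 25.5% of *Lyz1* UMIs in Paneth-like cells and 21.2% to 28.6% in droplets. *Itln1* UMIs were 53.5% to 73.1% in Paneth-like cells, with the HFD VSG villi highest and the HFD VSG crypts lowest, and 67.3% to 78.5% in droplets.

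**Figure D4:**
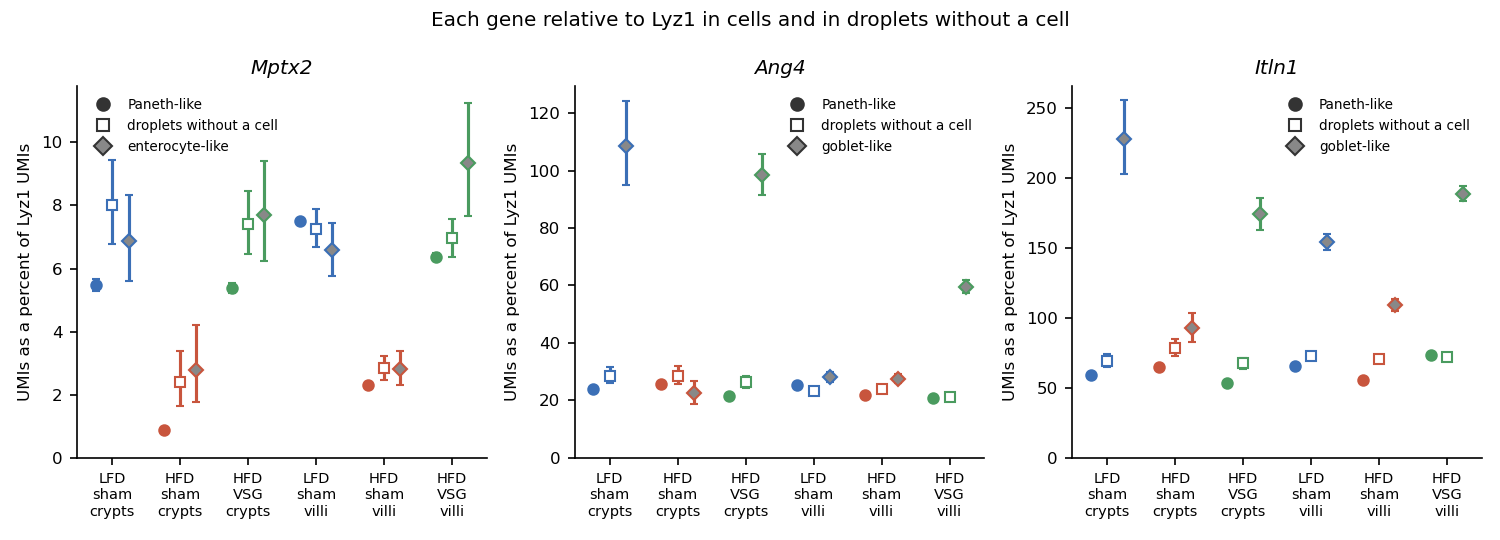
UMIs of *Mptx2*, *Ang4* and *Itln1* as a percent of *Lyz1* UMIs of the same cells or droplets, by library. Circles are Paneth-like cells, open squares droplets without a cell, grey diamonds enterocyte-like cells (for *Mptx2*) or goblet-like cells (for *Ang4* and *Itln1*), and bars 95% counting intervals. *Mptx2* is lowest in both HFD sham libraries in all 3 kinds of sample, which share the suspension of their library and are not independent. *Ang4* in goblet-like cells of the LFD sham and HFD VSG crypts, at 109% and 98.3%, stands far above Paneth-like cells and droplets.

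Goblet cells, which secrete the mucus that covers the epithelium, carried *Mptx1*. Goblet-like cells numbered 146, 96 and 165 in the LFD sham, HFD sham and HFD VSG crypts and 346, 310 and 288 in the villi. Their *Mptx1* level was 10.2 CPM [5.83 to 16.6] from 16 UMIs, 5.14 CPM [1.40 to 13.2] from 4 UMIs and 91.5 CPM [78.3 to 106] from 171 UMIs in the crypts. In the villi it was 37.4 CPM [32.3 to 43.0], 55.1 CPM [47.7 to 63.5] and 56.4 CPM [51.1 to 62.1], from 192, 194 and 414 UMIs. The HFD VSG crypts were the highest library and the other crypts the lowest, while the 3 villus libraries lay between them.

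The high *Mptx1* value of the HFD VSG crypts came largely from 1 cell, which held 76.0% of the 171 UMIs, and without the highest cell of each library the levels were 7.05, 2.61 and 22.2 CPM in the crypts and 20.7, 47.6 and 46.9 CPM in the villi. The log2 ratio of HFD VSG to HFD sham in the crypts was 4.15 [2.77 to 6.04] with that cell, and none is given without it, since 2 UMIs were then left in the HFD sham crypts. That of HFD VSG to LFD sham was 3.16 [2.42 to 4.003] with it and 1.65 without. The ratio of HFD sham to LFD sham was -0.99 [-3.03 to 0.64], an interval that includes 0. In the villi the log2 ratios were 0.56 [0.27 to 0.86] for HFD sham to LFD sham, 0.03 [-0.22 to 0.29] for HFD VSG to HFD sham and 0.59 [0.34 to 0.85] for HFD VSG to LFD sham. Without the highest cells the first and last of these were 1.20 and 1.18. In cells thinned to 1500 UMIs the last was -0.58 [-1.63 to 0.42], with its sign turned and an interval that includes 0.

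Few goblet-like cells held an *Mptx1* transcript, 6, 3 and 18 in the crypts and 38, 51 and 64 in the villi, or 3.12% to 22.2% of the class. Thinned to 1500 UMIs the shares were 0% to 5.88%, too near the level of 1 UMI to be compared between libraries. Enterocyte-like cells had shares of 0% to 0.437% and immune-like cells 0% to 1.57% before thinning, at median depths of 9365 to 34642 and 3183 to 8432 UMIs against 5557 to 25130 UMIs in goblet-like cells. Droplets without a cell held 0, 0 and 1 *Mptx1* UMIs in the crypts and 3, 3 and 41 in the villi.

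Goblet-like cells with an *Mptx1* UMI had more *Itln1* than those without in 5 of 6 libraries. *Itln1* was 2705 against 1159 CPM in the HFD VSG crypts, 1793 against 1301 in the LFD sham villi, 2232 against 1559 in the HFD sham villi and 2732 against 1439.7 in the HFD VSG villi. It was 1461 against 553 CPM in the LFD sham crypts with 6 such cells, and 183 against 830.3 in the HFD sham crypts with 3. *Ang4* was higher in cells with *Mptx1* in the 3 villus libraries (979 against 157, 596 against 381 and 668 against 509.9 CPM), in the HFD VSG crypts (2655 against 506 CPM) and in the HFD sham crypts (512 against 184 CPM), and level in the LFD sham crypts (296 against 297 CPM). The alpha-defensins were higher in these cells in 5 libraries, at 20427 against 9859, 16204 against 11169 and 13963 against 7985 CPM in the villi and 32152 against 4979 CPM and 4367 against 4102 CPM in the HFD VSG and LFD sham crypts, and lower in the HFD sham crypts, at 2597 against 3869 CPM. One cell carried the *Ang4* value of the HFD VSG crypts. Without the cell with most *Mptx1* UMIs of each library, a choice added after seeing the data, *Ang4* in the cells with *Mptx1* was 255, 840.2 and 731 CPM in the LFD sham, HFD sham and HFD VSG crypts and 1023, 603 and 675 CPM in the villi, where the 840.2 CPM came from 14 UMIs in 2 cells. *Itln1* in the HFD sham villi was then 1665 CPM, close to the 1559 CPM of cells without *Mptx1*, and the alpha-defensins were 25653 CPM in the HFD VSG crypts and 4081 CPM in the HFD sham crypts, the latter no longer below the cells without *Mptx1*. The part of depth, of free RNA or of doublets in these values was not tested.

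*Ang4* was higher in goblet-like cells of the HFD VSG libraries than of the LFD sham libraries in both fractions. Its goblet-like level was 297, 195 and 758 CPM in the LFD sham, HFD sham and HFD VSG crypts and 247, 433 and 545 CPM in the villi. The log2 ratio of HFD VSG to LFD sham was 1.35 [1.20 to 1.51] in the crypts and 1.14 [1.05 to 1.23] in the villi, and that of HFD VSG to HFD sham 1.95 [1.71 to 2.21] and 0.33 [0.25 to 0.42]. HFD sham to LFD sham went opposite ways, at -0.60 [-0.88 to -0.33] and 0.81 [0.70 to 0.92]. With free RNA subtracted by the fractions from immune-like cells, the villus ratios were 5.12 for HFD VSG to LFD sham and 4.34 for HFD sham to LFD sham. The levels behind them were 16.1, 327 and 561 CPM, so that little was left in the LFD sham villi, and the fraction of the HFD sham villi rested on 5 immune-like cells, against 546 and 412 in the LFD sham and HFD VSG villi. With doublets kept the ratio of HFD VSG to HFD sham in the villi was -0.02. Without the highest cell of each library the levels were 188, 148 and 530.3 CPM in the crypts and 196, 389.6 and 499.5 CPM in the villi.

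The ratio of *Ang4* to *Lyz1* in goblet-like cells lay above that of droplets, by intervals that did not overlap, in 5 of 6 libraries. *Ang4* UMIs were 109% [95.1% to 124%] of *Lyz1* UMIs in goblet-like cells of the LFD sham crypts, 98.3% [91.3% to 106%] in the HFD VSG crypts and 59.6% [57.3% to 61.9%] in the HFD VSG villi. In the other 3 libraries they were 22.4% to 28.1%, within the 20.8% to 28.6% of Paneth-like cells and droplets. *Itln1* UMIs were 92.4% to 228% of *Lyz1* UMIs in goblet-like cells, above the droplets in all 6 libraries. The goblet-like level of *Itln1* was 621, 808 and 1339.7 CPM in the crypts and 1355, 1720.1 and 1728 CPM in the villi, with log2 ratios of HFD VSG to LFD sham of 1.11 [1.00 to 1.22] and 0.35 [0.31 to 0.39].

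Of the 4 genes that averaged 50 UMIs or more in goblet-like cells of the crypts, 2 were lower and 1 higher by more than 0.5 in HFD sham against LFD sham, where 5.18% and 5.80% of 3860 genes were. The 2 lower genes were *Mptx1*, from 4 against 16 UMIs, and *Ang4*, which was at -0.34 without the highest cell of each library. In HFD VSG against HFD sham 3 were higher and none lower (9.20% and 7.88% of all genes), and in HFD VSG against LFD sham all 4 were (6.53%). *Mptx1* counted among the higher genes in both. It held 16, 4 and 171 UMIs in the LFD sham, HFD sham and HFD VSG crypts, and 130 of the 171 were in 1 cell. It reached the minimum of 50 only through HFD VSG, so its place among the higher genes was set by the filter. In the villi 5 genes were measured, of which 4 were higher and none lower in HFD sham against LFD sham (2.83% and 4.02% of 7904 genes), 2 lower and none higher in HFD VSG against HFD sham (29.9% and 5.01%), and 1 lower and 2 higher in HFD VSG against LFD sham (32.1% and 5.41%). *Mptx2* among them was 151 CPM in the HFD sham villi, of which 1 cell held 93.0%, and 10.6 CPM without that cell. *Lyz1* in goblet-like cells, at 273 to 1578 CPM, was lower than in droplets in 4 of 6 libraries.

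**Figure D5:**
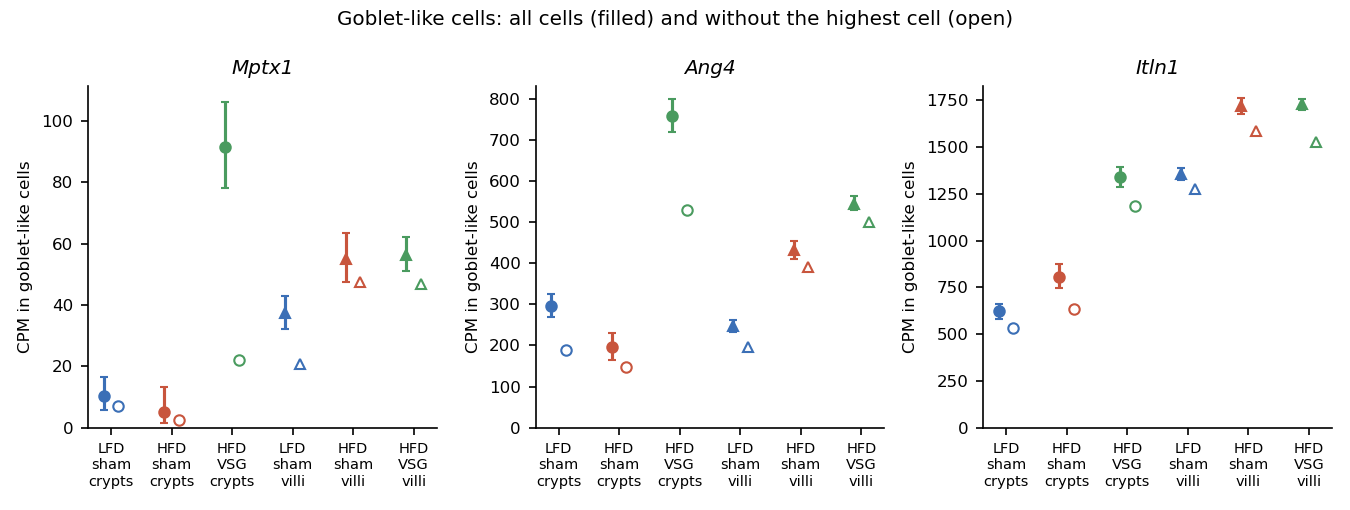
Level of *Mptx1*, *Ang4* and *Itln1* (CPM) in goblet-like cells by library. Filled points with bars are all goblet-like cells with 95% counting intervals, and open points the level without the cell that held most UMIs of the gene. *Mptx1* in the HFD VSG crypts goes from 91.5 to 22.2 CPM without that cell, and *Ang4* there goes from 758 to 530.3 CPM and stays the highest of the crypts.

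Close relatives of the genes were scarce in Paneth-like cells. Of 14 paralogs listed, 13 were in the matrices. *Ang*, which encodes an angiogenin found in many tissues, was the highest at 56.2 to 99.2 CPM, and like *Mptx2* it was lower in HFD sham than in LFD sham, at log2 ratios of -0.76 [-1.38 to -0.18] in the crypts and -0.54 [-0.77 to -0.31] in the villi. *Ang* was higher in HFD VSG than in HFD sham, at 0.65 [0.08 to 1.26] and 0.30. The secreted phospholipase gene *Pla2g2f* was at 17.4 to 34.3 CPM and in the villi went the other way from *Ang*, at 0.50 [0.13 to 0.86] for HFD sham to LFD sham and -0.98 [-1.49 to -0.49] for HFD VSG to HFD sham. In the crypts its ratios were 0.27 [-0.80 to 1.29] and -0.07 [-1.03 to 0.95], with intervals that include 0. *Lyz2*, the lysozyme of macrophages, was at 1.44 to 4.53 CPM, and *Pla2g5* and *Pla2g10* had at most 15 and 8 UMIs. *Ang2*, *Ang5* and *Pla2g2c* had 2 UMIs at most in a library, and *Crp*, *Apcs*, *Ang6*, *Pla2g2d* and *Pla2g2e* had 0.

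Reads of near-identical genes could be split or lost in counting. Of the windows of 50 bases in the longest coding transcript, 16.1% for *Lyz1* also occurred in *Lyz2*, 17.9% for *Mptx1* and 18.0% for *Mptx2* in each other, 4.70% for *Ang4* in *Ang2* and *Ang5*, and 1.01% for *Itln1* in *Gm9765*. In the last 300 windows, near the counted 3′ end, *Mptx1* and *Mptx2* shared none, *Lyz1* shared 59 and *Ang4* shared 31.

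The alpha-defensins, the main cargo of the same granules, had *Defa24* (287207 to 323130 CPM) and *Defa30* (72472 to 105087 CPM) as their highest genes in Paneth-like cells. Of 20 measured alpha-defensins in the crypts, 5 were lower and 2 higher by more than 0.5 in HFD sham against LFD sham, with a median log2 ratio of -0.18, where 12.2% of all genes were lower and 13.0% higher. In HFD VSG against HFD sham 10 were higher and 0 lower, with a median of 0.45, where 2.93% of all genes were higher and 33.6% lower. That background is not independent of them. Its 22 higher genes include these 10, and a larger alpha-defensin share of the UMIs lowers the CPM of the other genes. Of 21 in the villi, 4 were lower and 1 higher in HFD sham against LFD sham (7.75% and 24.6% of all genes), with a median of -0.22, and 8 higher and 2 lower in HFD VSG against HFD sham (16.9% and 35.5%), with a median of 0.34. In HFD VSG against LFD sham 4 of 20 and 6 of 21 were higher (3.59% and 14.4% of all genes) and none lower (31.0% and 15.3%), with medians of 0.18 and 0.06. *Defa21* and *Gm14851*, whose levels over classes and libraries were most like those of *Mptx2*, were at -0.63 and -0.53 in the HFD sham against the LFD sham crypts, and at 0.85 and 0.71 in HFD VSG against HFD sham. In the villi they were at -0.30 and -0.22, both within 0.5, and at 0.39 and 0.75. *AY761184*, the next most like, was within 0.5 in the crypts in both comparisons. In the villi it was lower beyond 0.5 in HFD sham against LFD sham and higher in HFD VSG against HFD sham. The likeness was measured over sums that include the Paneth-like sums compared here, so these ratios are not independent of it.

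Other secreted defence genes went by other orders. *Reg4*, a regenerating-family lectin, was at 801 to 1238 CPM in Paneth-like cells and within 0.5 in all comparisons. *Reg3g*, a lectin that kills Gram-positive bacteria, was at 422 to 1184 CPM, and its log2 ratio of HFD sham to LFD sham was -1.34 in the crypts and -1.18 in the villi. HFD VSG to HFD sham was 0.52 and 0.49 for *Reg3g*, so that it stayed at -0.82 and -0.70 against LFD sham. Of the 6 measured genes of that list, 2 were lower and 2 higher in HFD sham against LFD sham in the crypts (12.2% and 13.0% of all genes), and 2 lower and 0 higher in the villi (7.75% and 24.6%). In HFD VSG against HFD sham 3 were lower and 1 higher in the crypts (33.6% and 2.93%) and 1 each way in the villi (35.5% and 16.9%). Against LFD sham 4 were lower in the crypts (31.0%) and 1 each way in the villi (15.3% and 14.4%).

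For genes of granule processing and the niche, 5 of 10 in the crypts and 5 of 12 in the villi were higher in HFD sham against LFD sham and none lower, where 13.0% and 24.6% of all genes were higher. In HFD VSG against HFD sham 3 of 10 and 4 of 12 were lower and none higher, close to the 33.6% and 35.5% of all genes that were lower. Against LFD sham, 2 of 10 were higher in the HFD VSG crypts (3.59% of all genes) and 2 of 12 lower in the villi (15.3%). *Spink4* (6053 to 10475 CPM) and *Clps*, which encodes the colipase of fat digestion (3737 to 4523 CPM), were the highest of them. Lineage and secretory regulators were led by *Sox9* (76.2 to 105 CPM) and *Xbp1* (68.1 to 109 CPM). Of these, 1 of 2 in the crypts and 7 of 10 in the villi were higher in HFD sham against LFD sham (13.0% and 24.6% of all genes), and 1 of 2 and 6 of 10 lower in HFD VSG against HFD sham (33.6% and 35.5%). Against LFD sham, 0 of 2 and 1 of 10 were beyond 0.5 in HFD VSG, the latter lower, where 31.0% and 15.3% of all genes were lower. The villus counts of these lists and of all genes are given only over all Paneth-like cells. They include the 48 HFD VSG cells under 10% alpha-defensin UMIs, which held 262651 of that library's 2996502 Paneth-like UMIs.

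Across 47 sums by class and library, the non-member genes most like each gene were taken by the Pearson correlation of log2(CPM + 1). *Lyz1* was most like *Defa24* (0.99), *Defa17* (0.99) and *AY761184* (0.98). *Mptx2* was most like *Defa21* (0.97), *Gm14851* (0.97) and *AY761184* (0.97), all of them alpha-defensin genes. *Ang4* and *Itln1* were most like *Defa24* (0.99 for both) and *Defa17* (0.99 and 1.00), followed by *Clps* (0.97 and 0.96). *Mptx1* was most like the goblet cell genes *Zg16* (0.86), *Clca1* (0.85) and *Tff3* (0.84), and its correlation with *Mptx2* was 0.06. These sums share libraries and free RNA and are not independent.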

How the data were processed

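Per the labels and the study's methods, jejunal crypt and villus fractions were pooled by group and captured with 10x Genomics 3′ v3.1 chemistry. With Cell Ranger 6.0.0 and the mm10 genome the authors made and deposited 2 matrices of UMI counts per library, for all barcodes and for called ones, neither normalized nor corrected for free RNA. Called barcodes numbered 7765 to 12012 per library, with medians of 3622 to 15202 UMIs.

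Barcodes with under 750 genes or over 20% mitochondrial UMIs were removed. So were the highest doublet scores among all called barcodes, whether or not they passed those filters (0.8% per 1000 called barcodes, against 2 simulated doublets per barcode, 30 components, 20 neighbours). Tested on simulated doublets, 56% of the top scores were true ones. Libraries were integrated and clustered in R 4.3.3 (Matrix 1.6.5) with sctransform 0.4.2 and Seurat 5.3.0 (2000 genes, 30 components, resolution 0.4) with the 5 genes left out, so class names can differ from the study's. A cluster was named where over 50% of a class's markers had at least 2 times the median cluster's mean and UMIs in at least 10% of cells. It stayed unnamed where more of its leading genes marked another class than its own, or where genes of damaged droplets were among them. A cluster of median depth under 1/3 of its library's also needed its summed markers at 2 times the droplet level or more, a threshold set after seeing the data, which left 2046 shallow cells with 9 of 11 Paneth markers unnamed.

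UMIs were summed by class and library and scaled to CPM. Sums under 3 UMIs were set to 3 and read as bounds, and their ratios appear only in the closing section. The background holds genes that averaged 50 UMIs or more over the 3 libraries of a fraction. It includes the alpha-defensins and the members that reach that mean. The pseudocount for correlations was 1, over genes with at least 200 UMIs in Paneth-like cells and classes with at least 20 cells. Named genes were the 6 members, paralogs with at least 3 UMIs in Paneth-like cells, the 2 highest genes of each other list and the 3 genes most like each member. Paralogs with fewer UMIs are named only with their counts. Members and lists were chosen with earlier results of these data known. With 1 library per group no test or p-value was computed. Other tools were pandas 2.3.3, matplotlib 3.10.9, scipy 1.17.1, numpy 2.4.6 and scikit-learn 1.9.0 in Python 3.11.15 (seed 1).

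Alternatives were free RNA subtracted with 2 sets of fractions, at least 1500 genes, at most 10% mitochondrial UMIs, doublets kept, resolution 0.8, median-of-ratios scaling, totals without mitochondrial or without Paneth list genes, thinning to 1500 UMIs (shallower cells left out, 1 random draw, with the share and level expected over draws), cells with at least 10% alpha-defensin UMIs, and leaving out the cell with most UMIs of the gene. Cells with at least 10% alpha-defensin and 10000 UMIs, thinned shares in cells with at least 10% alpha-defensin UMIs, and goblet-like cells with *Mptx1* without the highest cell, were added after seeing the data.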

Additional observations from a re-analysis of the deposited data

Results flagged for a closer look

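Ratios of opposite sign in the crypt-labelled and villus-labelled libraries, with no overlap between 0 and either counting interval, were found for 4 genes in Paneth-like cells and 1 in goblet-like cells. The differences between the fractions were not tested, since each ratio rests on 1 library per group, and the HFD VSG villi, in which 43 of 91 Paneth-like cells had at least 10% alpha-defensin UMIs, enter most of them. *Lyz1* in Paneth-like cells was at a log2 ratio of 0.14 in the crypts and -0.39 in the villi for HFD VSG to HFD sham, and at 0.35 and -0.25 for HFD VSG to LFD sham. *Mptx2* was at 0.32 and -0.49 for HFD VSG to LFD sham. *Ang4* was at 0.29 and -0.072 for HFD sham to LFD sham, and at 0.18 and -0.53 for HFD VSG to LFD sham. *Itln1* was at 0.35 and -0.10 for HFD sham to LFD sham, and at 0.21 and -0.093 for HFD VSG to LFD sham. In goblet-like cells *Ang4* was at -0.60 and 0.81 for HFD sham to LFD sham. In the villi the sign of *Itln1* held in 12 of 13 alternatives for HFD sham to LFD sham and in 9 of 13 for HFD VSG to LFD sham (up to 0.034, and 0.03 in the cells with at least 10% alpha-defensin UMIs), and that of *Ang4* in 12 of 13 for HFD sham to LFD sham. In the crypts the sign of *Lyz1* for HFD VSG to HFD sham held in 11 of 13 and that of *Mptx2* for HFD VSG to LFD sham in 12 of 13.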

How the results depend on the processing

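No paired analysis was possible because each group had 1 library per fraction, and for the same reason no replicate could be left out. *Mptx2* in Paneth-like cells kept its direction under all 13 alternatives for HFD sham to LFD sham (log2 ratio -2.59 to -2.22 in the crypts, -1.84 to -1.45 in the villi) and for HFD VSG to HFD sham (2.17 to 3.23 and 0.61 to 1.35). Some other ratios under 0.5 of *Lyz1*, *Ang4* and *Itln1* in Paneth-like cells changed sign under at least 1 alternative. In the villi these were all 3 genes for HFD sham to LFD sham (*Lyz1* down to -0.15, *Ang4* up to 0.034, *Itln1* up to 0.0036) and *Itln1* for HFD VSG to HFD sham (down to -0.60) and to LFD sham (up to 0.034). In the crypts they were all 3 for HFD VSG to HFD sham. In goblet-like cells the sign changed for HFD VSG to HFD sham of *Lyz1* in the crypts and of *Mptx1*, *Ang4* and *Itln1* in the villi, and for HFD VSG to LFD sham of *Mptx2* in the crypts and *Lyz1* in the villi. *Mptx2* in Paneth-like cells for HFD VSG to LFD sham ran from -0.42, when thinned, to 0.74 in the crypts and from -0.96 to -0.31 in the villi. In goblet-like cells, *Mptx2* in the crypts (HFD sham to LFD sham) was at 0.19 when thinned against -1.10, the latter a bound from 2 UMIs set to 3, *Mptx1* in the villi (HFD VSG to LFD sham) at -0.58 when thinned against 0.59, and *Mptx2* in the villi (HFD sham to LFD sham) at -0.90 without the highest cell against 2.88. The cause was not tested, other than for the last, where 1 cell held 93.0% of the UMIs.

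The counts of genes beyond 0.5, taken here over all members with a ratio, were within 1.5 times of the reported count in 270 cases and outside in 42. In Paneth-like cells of the crypts, 2 were higher in HFD sham to LFD sham with the stated free-RNA fractions and 3 when thinned, against 0; 2 were higher in HFD VSG to HFD sham with totals without Paneth list genes, against 1; and in HFD VSG to LFD sham 4 were higher with those totals, 2 when thinned and 2 with median-of-ratios scaling, against 0. The counts include *Mptx1*, with 6, 0 and 2 UMIs in Paneth-like cells of the villi, where sums under 3 were set to 3, and every gene counted there as higher is *Mptx1* at that bound or, in HFD VSG to HFD sham, *Mptx2*. In Paneth-like cells of the villi, 1 was higher in HFD sham to LFD sham with immune-cell fractions, 1500 genes and the added minimum of 10000 UMIs, against 0. In HFD VSG to HFD sham 2 were lower with the stated fractions, 3 when thinned and 1 without the highest cell, against 0. In HFD VSG to LFD sham, against 1, 2 were lower with both subtractions, 1500 genes, totals without Paneth list genes and without the highest cell, 4 when thinned, and 0 with 10% mitochondrial UMIs, doublets kept, resolution 0.8, both defensin settings and median-of-ratios scaling, while 1 was higher with immune-cell fractions, 10000 UMIs and without the highest cell, against 0. In goblet-like cells of the crypts, 2 were higher in HFD sham to LFD sham with immune-cell fractions, 1500 genes and when thinned, against 1, 0 were lower when thinned, against 3, and 1 was lower in HFD VSG to LFD sham when thinned, against 0. In goblet-like cells of the villi, 1 was lower in HFD sham to LFD sham without the highest cell, against 0. In HFD VSG to HFD sham 1 was lower with both subtractions, against 2, and 1 was higher with both and with median-of-ratios scaling, against 0. In HFD VSG to LFD sham 0 were lower with both subtractions and 2 when thinned, against 1, and 1 was higher when thinned, against 2. Totals without mitochondrial genes left all counts within 1.5 times. *Mptx1* was close to the floor of 3 UMIs in goblet-like cells of the HFD sham crypts, with 4 UMIs.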

Other observations

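Over all cells that passed the filters, whatever their class, *Mptx2* was at 81.3, 12.0 and 74.0 CPM in the LFD sham, HFD sham and HFD VSG crypts and at 584, 118 and 80.7 CPM in the villi. *Lyz1* over the same cells was at 1479, 1265 and 1362 CPM in the crypts and at 7943, 4691 and 1295 CPM in the villi. In these whole-library values the share of Paneth-like cells and the level per cell cannot be told apart. *Mptx2* in the crypts was lowest in HFD sham, as in Paneth-like cells, while LFD sham and HFD VSG stood in the other order, and in the villi HFD VSG was lowest for both genes.

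*Ang*, a paralog of *Ang4*, was at 82.3 CPM in goblet-like cells of the LFD sham crypts and at 138 CPM in those of the HFD VSG villi, near or above its level in Paneth-like cells.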
